A study of Mus musculus with 12 samples.

Results

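The pyruvate dehydrogenase complex (PDC) turns pyruvate into acetyl-CoA inside mitochondria, and the Krebs cycle oxidizes that acetyl unit to carbon dioxide while passing electrons to the respiratory chain. PDC kinases phosphorylate the complex and switch it off, which spares glucose when fatty acids are burned, and PDC phosphatases switch it on again. The heart is rich in these enzymes, whereas white fat uses part of the cycle to export citrate for lipid synthesis and uses pyruvate carboxylase to refill it.

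A list of 33 genes of this pathway was taken from the 23042 genes measured in mouse heart ventricles and epididymal white adipose tissue (EWAT). It held 5 PDC subunits, 4 PDC kinases, 2 PDC phosphatases, pyruvate carboxylase and 2 transaminases. Another 19 were enzymes and subunits of the Krebs cycle and its cytosolic counterparts. The genes were listed by name, without a cut on a measured value, but with earlier results of these data known. Each of the 33 genes had an entry of its own in both tissues and a mean of at least 1 FPKM (fragments per kilobase of transcript and of sequencing depth, a level corrected for transcript length), so all were tested.

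RNA was sequenced from 12 libraries, 3 for each genotype and tissue, of male C57BL/6 littermates that the labels describe as 6 weeks old, on normal chow, fed ad libitum, with tissue taken late in the afternoon. WT mice were compared with MED13cTg mice, which carry a transgene for MED13, a subunit of the Mediator kinase module, expressed in the heart. In ventricles Med13 stood at 13.1, 10.6 and 11.5 FPKM in WT replicates 1, 2 and 3 and at 263, 181 and 204 FPKM in MED13cTg. In EWAT it stood at 7.84 to 11.0 FPKM in all 6 libraries. The question was whether transcripts for mitochondrial fuel use differed between the genotypes in the heart that carries the transgene and in fat.

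The heart libraries held 66519 to 94768 FPKM of 8 ventricular myocyte markers, and the EWAT libraries at most 61.5 FPKM. Libraries of both tissues stood apart from others of their group. The EWAT libraries of WT replicates 1 to 3 and of MED13cTg replicate 3 held summed levels of 10 epididymis markers between 73157 and 94585 FPKM, beside 13326 to 31808 FPKM of 8 adipocyte markers. MED13cTg EWAT replicate 1 held 1288 FPKM of adipocyte markers and 14002 FPKM of 8 male germ cell markers, against 219 to 350 FPKM in those 4 libraries. MED13cTg EWAT replicate 2 held 79010 FPKM of adipocyte markers, only 225 FPKM of epididymis markers and 5.95 FPKM of germ cell markers. In bulk tissue fewer cells of a type and less RNA per cell cannot be told apart. In ventricles, WT replicate 1 clustered with MED13cTg replicates 1 and 2, and WT replicates 2 and 3 with MED13cTg replicate 3. Summed levels of 5 atrial markers were 743, 493 and 447 FPKM in the WT ventricles and 996, 2443 and 1160 FPKM in the MED13cTg ventricles, apart by genotype. Most of each sum was Nppa, the gene of atrial natriuretic peptide, at 368 to 564 FPKM in WT, against 892 to 1773 FPKM in MED13cTg. Bmp10 was listed at 0 in all but MED13cTg replicate 2. Relative depth ran from 0.920 to 1.03 in ventricles and from 0.660 to 1 in EWAT, with MED13cTg replicates 1 and 2 lowest there.

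In ventricles no gene of the pathway passed the test, yet 31 of the 33 had a lower mean in MED13cTg than in WT. Their median log2 fold change was -0.25, against -0.01 for all 12589 genes tested, of which 53.3% were lower. The standard error of a member ran from 0.11 to 0.46 on the log2 scale, with a median of 0.16. With limma and Benjamini-Hochberg adjustment 0 of 33 members passed an adjusted p of 0.05, where 0.0556% of all genes did, and the members' adjusted p lay between 0.966 and 0.979. Unadjusted, 1 of 33 was under 0.05, beside 4.73% of all genes. Every MED13cTg library lay below every WT library for 8 members, which is 24.2% of the list beside 5.85% of all genes, and above for 2 members, or 6.06% beside 3.46%. The count of 8 fell to 5 after median-of-ratios scaling, where 584 of all 12589 genes lay below. It fell to 2 after quantile normalization, where 547 did. Under these scalings 31 and 30 members had a lower mean, beside 6260 and 6307 of all genes. The summed atrial markers were higher in all 3 MED13cTg ventricles, but of the single markers only Nppa was. The part of these markers in the members' genotype difference was not tested. Without MED13cTg replicate 2, which had the highest sum, 30 members had a lower mean, beside 7125 of 12556 genes, and the median was -0.24. MED13cTg replicates 1 and 3, with sums of 996 and 1160 FPKM, still lay above every WT sum, so this fit cannot tell the markers from the genotype.

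**Figure D1:**
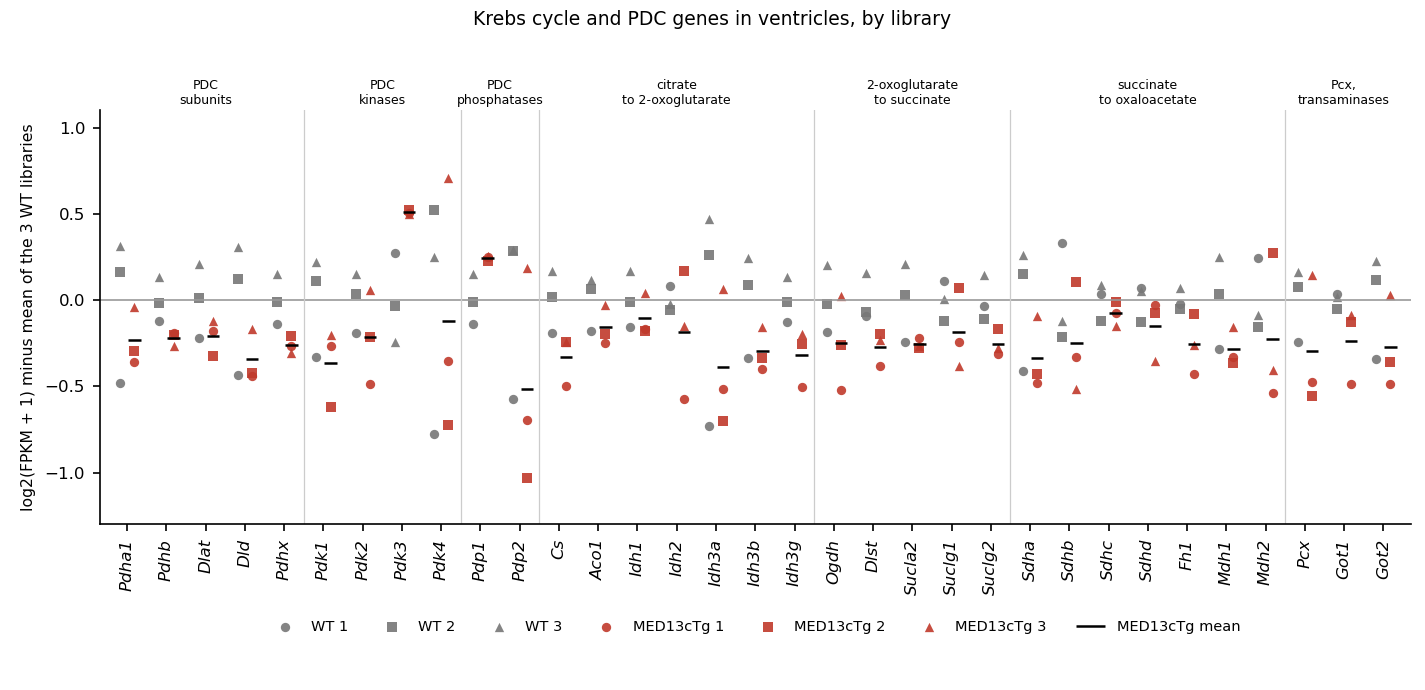
Level of each of the 33 genes in the 6 ventricle libraries, as log2(FPKM + 1) minus the mean of the 3 WT libraries. Gray marks are WT, red marks MED13cTg, circles, squares and triangles replicates 1, 2 and 3, and black bars the MED13cTg mean, which lies below 0 for 31 genes and above it for Pdk3 and Pdp1.

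The PDC subunits form the catalytic core. Pdhb, the beta subunit of the decarboxylase, held 708, 760 and 843 FPKM in the WT ventricles and 674, 669 and 639 FPKM in the MED13cTg ventricles. Its groups did not overlap, with a log2 fold change of -0.22 ± 0.13 (SE, n = 3 per genotype, adjusted p = 0.966 in limma). Pdhx, the protein that anchors dihydrolipoamide dehydrogenase to the core, held 78.2, 85.5 and 96.0 FPKM in WT, against 71.6, 74.4 and 69.6 FPKM in MED13cTg. This pair of groups did not overlap either, and the log2 fold change was -0.26 ± 0.12 (SE, adjusted p = 0.966 in limma). The other subunits had lower means but overlapping groups. Pdha1, the X-linked alpha subunit that the kinases phosphorylate, held 474, 741 and 822 FPKM in WT, against 515, 538 and 641 FPKM in MED13cTg, so that WT replicate 1 was the lowest of all. Dld, the dehydrogenase shared with the oxoglutarate complex, ran from 230 to 386 FPKM in WT, against 229 to 277 FPKM in MED13cTg. Dlat, the acetyltransferase, ran from 148 to 199 FPKM in WT, against 137 to 158 FPKM in MED13cTg.

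The kinases had no common direction. Pdk3, the least abundant, held 2.57, 1.89 and 1.4997 FPKM in WT, against 3.19, 3.25 and 3.18 FPKM in MED13cTg. All 3 MED13cTg libraries were above all 3 WT libraries, and the log2 fold change of 0.51 ± 0.15 (SE) had the only unadjusted p under 0.05 among the members, 0.0131, but an adjusted p of 0.966 in limma. Pdk4, the kinase induced by fatty acids and fasting, was the most abundant and the most variable. It held 312, 770 and 638 FPKM in WT, against 419, 323 and 875 FPKM in MED13cTg, with low values in the libraries that clustered with WT replicate 1 and high values in the others. Its difference of -0.12 had a 95% interval from -1.22 to 0.98 on the log2 scale. Pdk2, the broadly expressed kinase, ran from 178 to 226 FPKM in WT, against 145 to 211 FPKM in MED13cTg. Pdk1 ran from 35.0 to 51.7 FPKM in WT, against 28.5 to 38.4 FPKM in MED13cTg.

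The phosphatases went in different directions. Pdp1, the calcium-sensitive phosphatase, held 13.6, 14.99 and 16.8 FPKM in WT, against 18.1, 17.9 and 18.2 FPKM in MED13cTg, without overlap. Its log2 fold change was 0.25 ± 0.11 (SE, adjusted p = 0.966 in limma). Pdp2 held 3.51, 7.20 and 7.23 FPKM in WT, against 3.15, 2.29 and 6.66 FPKM in MED13cTg, and its lowest mean difference of the list, -0.51 on the log2 scale, came with a standard error of 0.37.

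Citrate synthase, Cs, opens the cycle and held 605, 701 and 778 FPKM in WT ventricles and 490, 584 and 583 FPKM in MED13cTg ventricles. Every MED13cTg value was below every WT value, and the log2 fold change was -0.33 ± 0.16 (SE, adjusted p = 0.966 in limma). Idh3g, a regulatory subunit of the NAD-dependent isocitrate dehydrogenase, held 497, 539 and 597 FPKM in WT, against 383, 455 and 473 FPKM in MED13cTg. Its groups were again apart, with a log2 fold change of -0.32 ± 0.15 (SE, adjusted p = 0.966 in limma). Idh3a, the catalytic subunit of the same enzyme, overlapped widely at 345, 686 and 794 FPKM in WT, against 400, 352 and 599 FPKM in MED13cTg. Idh3b, the other regulatory subunit, ran from 940 to 1406 FPKM in WT, against 900 to 1065 FPKM in MED13cTg. The NADP-dependent Idh2 of mitochondria ran from 1528 to 1684 FPKM in WT, against 1070 to 1791 FPKM in MED13cTg. The cytosolic enzymes were scarce, with Idh1 between 43.3 and 55.3 FPKM and Aco1, the cytosolic aconitase that also binds iron-responsive RNA, between 13.8 and 18.0 FPKM in all 6 libraries.

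In the middle of the cycle Dlst, the succinyltransferase core of the oxoglutarate complex, held 299, 303 and 355 FPKM in WT, against 244, 277 and 271 FPKM in MED13cTg. Suclg2, the GTP-specific beta subunit of succinyl-CoA ligase, held 117, 111 and 133 FPKM in WT, against 96.7, 107 and 99.2 FPKM in MED13cTg. Neither gene's groups overlapped, and the log2 fold changes were -0.27 ± 0.13 for Dlst and -0.25 ± 0.12 for Suclg2 (SE, both with an adjusted p of 0.966 in limma). Ogdh, the first enzyme of the oxoglutarate complex, ran from 306 to 401 FPKM in WT, against 243 to 354 FPKM in MED13cTg. Sucla2, the ATP-specific beta subunit, ran from 482 to 661 FPKM in WT, against 471 to 490 FPKM in MED13cTg. Suclg1, the alpha subunit shared by both ligases, ran from 495 to 582 FPKM in WT, against 413 to 564 FPKM in MED13cTg.

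At the end of the cycle Fh1, fumarase, held 577, 565 and 616 FPKM in WT, against 435, 554 and 488 FPKM in MED13cTg, without overlap and with a log2 fold change of -0.26 ± 0.14 (SE, adjusted p = 0.966 in limma). The 4 subunits of succinate dehydrogenase, which is also respiratory complex II, overlapped between genotypes. Sdha ran from 562 to 898 FPKM in WT, against 536 to 703 FPKM in MED13cTg, and Sdhb from 1815 to 2644 FPKM in WT, against 1471 to 2255 FPKM in MED13cTg. These subunits did not keep a fixed ratio, since Sdhb stood at 4.70, 2.19 and 2.15 times Sdha in the WT libraries and at 3.11, 4.06 and 2.09 times in the MED13cTg libraries. The membrane anchors Sdhc and Sdhd ran from 543 to 642 FPKM and from 529 to 711 FPKM over the 6 libraries. The malate dehydrogenases were the most abundant pair, with cytosolic Mdh1 at 1986, 2480 and 2880 FPKM in WT, against 1925, 1878 and 2172 FPKM in MED13cTg. Mitochondrial Mdh2 held 2131, 1614 and 1699 FPKM in WT, against 1241, 2173 and 1358 FPKM in MED13cTg, and here WT replicate 1 and MED13cTg replicate 2 were high.

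Got1, the cytosolic aspartate transaminase of the malate-aspartate shuttle, held 497, 467 and 490 FPKM in WT, against 345, 443 and 457 FPKM in MED13cTg. Its groups did not overlap, although WT replicate 2 and MED13cTg replicate 3 were close, and the log2 fold change was -0.23 ± 0.15 (SE, adjusted p = 0.966 in limma). Its mitochondrial partner Got2 ran from 475 to 705 FPKM in WT, against 430 to 616 FPKM in MED13cTg. Pcx, pyruvate carboxylase, was scarce in the heart at 5.55 to 9.77 FPKM.

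The library clusters crossed the genotypes and touched many of these values. WT replicates 2 and 3 exceeded WT replicate 1, and MED13cTg replicate 3 exceeded the mean of MED13cTg replicates 1 and 2, for 20 of 33 members, where 31.4% of all genes tested did so. For Pdk4, Pdp2 and Idh3a both differences were over 0.5 on the log2 scale. Within the clusters 27 members were lower in MED13cTg in the cluster of WT replicate 1, 29 in the cluster of WT replicates 2 and 3, and 26 in both, beside 33.9% of all genes. The median differences were -0.10 and -0.28 within the clusters, each against -0.03 for all genes. What the clusters stand for is not given by the labels and was not tested.

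Of 33 related genes of pyruvate, malate and amino acid metabolism, 30 were tested in ventricles, 24 had a lower mean, where 53.3% of all genes did, and 0 passed an adjusted p of 0.05 in limma. At an unadjusted p under 0.05 there were 2, beside 4.73% of all genes. For 7 of them the MED13cTg values were all under the lowest WT value (5.85% of all genes), and for 0 all over the highest (3.46%). Ogdhl, a paralog of Ogdh, held 187, 162 and 156 FPKM in WT, against 91.6, 127 and 122 FPKM in MED13cTg, a log2 fold change of -0.57 ± 0.16 (SE, adjusted p = 0.945 in limma). Slc25a13, an aspartate and glutamate carrier of the malate-aspartate shuttle, held 51.9, 70.3 and 76.9 FPKM in WT, against 50.4, 44.7 and 51.5 FPKM in MED13cTg. Slc25a11, the oxoglutarate and malate carrier, ran from 424 to 494 FPKM in WT, against 367 to 401 FPKM in MED13cTg. Me3, a mitochondrial malic enzyme, ran from 24.3 to 25.4 FPKM and from 21.8 to 23.0 FPKM. Glud1, glutamate dehydrogenase, ran from 66.4 to 80.5 FPKM and from 57.6 to 66.1 FPKM, in an entry joined with the symbol Gm3219, which makes it uncertain.

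In EWAT no gene of the pathway passed the test either, and no direction was shared: 17 members had a lower and 16 a higher mean in MED13cTg. The median log2 fold change was -0.02, against 0.01 for all 14967 genes tested. Limma called 0 of 33 members at an adjusted p of 0.05, where 0.0134% of all genes passed, and 0 of 33 at an unadjusted p under 0.05, beside 1.25% of all genes. The members' adjusted p lay between 0.738 and 0.988. No member had all MED13cTg libraries above all WT libraries, which 4.88% of all genes had, or all below, which 7.8% had. The members' standard errors ran from 0.20 to 1.197 with a median of 0.44, larger than in ventricles, and the 3 MED13cTg libraries lay far apart.

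MED13cTg EWAT replicate 3 stayed within the WT range for 28 members, beside 55.8% of all genes, and its median difference from the WT mean was -0.06 on the log2 scale. Replicate 1 lay below the WT range for 21 members (48.2% of all genes) and above it for 7 (44.1%), with a median difference of -0.63. Replicate 2 lay above the WT range for 26 members (38.2% of all genes) and below it for 4 (45.7%), with a median difference of 0.73. For 17 members replicate 1 was below and replicate 2 above the WT range, as for 20.4% of all genes. The direction of the list followed these libraries. Without replicate 1, 6 of 33 members were lower in MED13cTg, beside 7227 of 13661 genes. Without replicate 2, 26 were lower, beside 7844 of 14968 genes. With both left out, 22 were lower, beside 7721 of 13643 genes. The part of the epididymis, germ cell and adipocyte transcripts in these differences was not tested, and the values are given beside each other here.

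**Figure D2:**
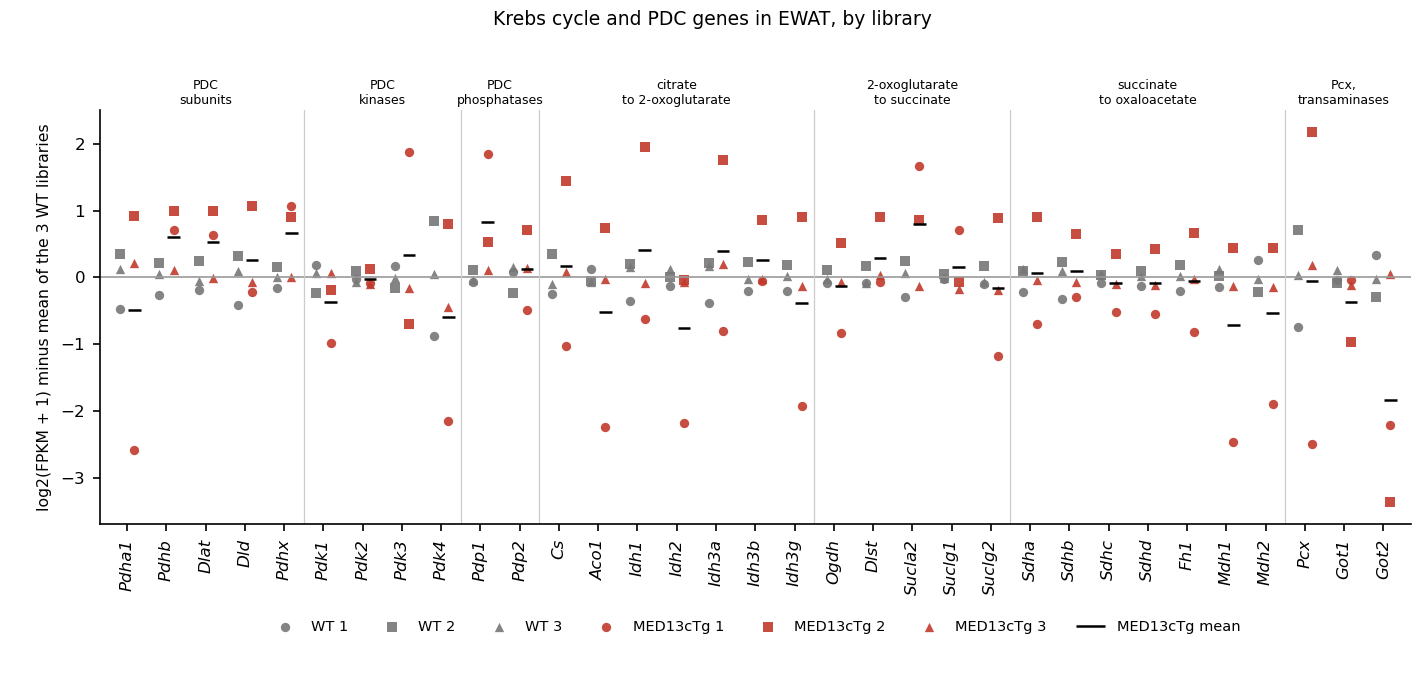
Level of each of the 33 genes in the 6 EWAT libraries, as log2(FPKM + 1) minus the mean of the 3 WT libraries. Gray marks are WT, red marks MED13cTg, circles, squares and triangles replicates 1, 2 and 3, and black bars the MED13cTg mean. MED13cTg replicate 1 is low and replicate 2 high for 17 genes, and replicate 3 lies within the WT range for 28.

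Pdhb, Dlat and Pdhx of the PDC lay above the WT range in MED13cTg replicates 1 and 2 alike. Pdhb held 88.7, 125 and 110 FPKM across WT, against 175, 214 and 116 FPKM in MED13cTg replicates 1, 2 and 3. Its log2 fold change of 0.61 ± 0.31 (SE, n = 3 per genotype) had an adjusted p of 0.738 in limma and was 0.12 with replicates 1 and 2 left out. Pdhx held 14.2, 17.9 and 15.9 FPKM in WT, against 34.6, 30.6 and 15.99 FPKM in MED13cTg. The log2 fold change was 0.66 ± 0.34 (SE, adjusted p = 0.738 in limma) and 0.00 with both libraries left out. Dlat followed, at 21.2 to 29.1 FPKM in WT, against 38.0, 49.3 and 24.03 FPKM in MED13cTg. Dld was high only in replicate 2, at 124 FPKM, against 50.7 and 56.2 FPKM in the others and 44.2 to 73.6 FPKM in WT.

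Pdha1 broke from its partners. It held 78.2, 140 and 119 FPKM in WT, against 17.3, 207 and 127 FPKM in MED13cTg, so that the ratio of Pdha1 to Pdhb, 0.882 to 1.12 in WT, stood at 0.0987 in MED13cTg replicate 1. In that library Pdha2, an intronless autosomal copy known for its expression in spermatogenic cells, held 73.7 FPKM. It was at 0.866, 0.294 and 0.118 FPKM in WT EWAT, was listed at 0 in replicate 2 and at 0.677 FPKM in replicate 3, and did not pass 0.0791 FPKM in any ventricle library. Pdha2 thus supplied 81.0% of the summed alpha subunit FPKM in MED13cTg EWAT replicate 1 and at most 1.09% in any other library.

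The promoters of this pair of genes are shown because they gave opposite levels in the same library. Each RefSeq window (GRCm38.p6) covers 250 bases before and 50 bases after the annotated start on the minus strand, and capitals mark CpG dinucleotides. Pdha1 lies on chromosome X at chrX:160138381-160138680, with 21 CpG and 62% GC, and Pdha2 on chromosome 3 at chr3:141212306-141212605, with 4 CpG and 29.7% GC. The median RefSeq promoter of mouse held 7 CpG and 52.7% GC.
Pdha1: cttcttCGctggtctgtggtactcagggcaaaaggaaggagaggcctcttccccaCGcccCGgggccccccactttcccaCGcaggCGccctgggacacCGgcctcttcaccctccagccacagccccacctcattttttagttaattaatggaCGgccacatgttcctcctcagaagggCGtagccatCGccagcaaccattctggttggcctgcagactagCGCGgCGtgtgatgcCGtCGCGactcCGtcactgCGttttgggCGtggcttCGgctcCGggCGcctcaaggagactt
Pdha2: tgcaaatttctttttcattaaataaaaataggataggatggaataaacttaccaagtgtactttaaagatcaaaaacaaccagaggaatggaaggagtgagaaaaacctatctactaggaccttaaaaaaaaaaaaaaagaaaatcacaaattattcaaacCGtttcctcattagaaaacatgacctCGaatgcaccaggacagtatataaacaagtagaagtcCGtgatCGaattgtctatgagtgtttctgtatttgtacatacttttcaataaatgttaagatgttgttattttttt

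The kinases also split in EWAT. Pdk3 held 11.8, 9.18 and 10.4 FPKM in WT, against 41.0, 6.07 and 9.19 FPKM in MED13cTg, high in the library with germ cell transcripts. Pdk4 held 7.26, 26.3 and 14.8 FPKM in WT, against 2.43, 25.5 and 10.2 FPKM in MED13cTg. Its lowest value was in the library with the fewest adipocyte transcripts, while replicate 2, richest in them, stayed within the WT range. Pdk1 ran from 16.7 to 22.6 FPKM in WT and held 9.54, 17.2 and 20.7 FPKM in MED13cTg. Pdk2 was nearly level, from 78.3 to 92.1 FPKM in all 6 libraries, and its difference of -0.02 had a 95% interval from -0.51 to 0.47 on the log2 scale. Pdp1 held 3.14, 3.68 and 3.19 FPKM in WT, against 14.5, 5.27 and 3.68 FPKM in MED13cTg. The log2 fold change was 0.83 ± 0.48 (SE, adjusted p = 0.738 in limma) and 0.11 with replicates 1 and 2 left out. Pdp2 stayed between 1.11 and 3.86 FPKM.

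At the entry of the cycle Cs held 70.1, 106 and 78.0 FPKM in WT, against 40.2, 228 and 88.7 FPKM in MED13cTg. Idh1, a source of cytosolic NADPH for lipid synthesis, held 38.0, 56.0 and 54.3 FPKM in WT, against 31.1, 191 and 46.0 FPKM in MED13cTg. Idh3a held 33.7, 51.8 and 49.96 FPKM in WT, against 25.1, 152 and 51.3 FPKM in MED13cTg. All 3 genes were lowest in MED13cTg replicate 1 and highest in replicate 2, with replicate 3 within the WT range. Aco1 and Idh3g had the same order, at 16.7 and 28.3 FPKM in replicate 1 and at 138 and 207 FPKM in replicate 2. Idh3b was higher in replicate 2, at 171 FPKM against 81.4 to 111 FPKM in WT, but not lower in replicate 1, at 90.7 FPKM. Idh2 held 119, 130 and 141 FPKM in WT, against 28.0, 126 and 124 FPKM in MED13cTg, and so was low in replicate 1 without being high in replicate 2. Its log2 fold change was -0.76 ± 0.62 (SE, adjusted p = 0.738 in limma).

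In the middle of the cycle the succinyl-CoA ligase subunits separated. Sucla2 held 42.5, 62.2 and 54.9 FPKM in WT, against 169, 96.6 and 47.8 FPKM in MED13cTg, and Suclg1 held 184 FPKM in MED13cTg replicate 1 against 99.2 to 115 FPKM in the other 5 libraries. Suclg2 went the other way in that library, at 15.3 FPKM against 33.3 to 40.5 FPKM in WT, and held 67.6 FPKM in replicate 2. Ogdh held 22.2 FPKM in replicate 1 and 58.2 FPKM in replicate 2, outside the WT range of 38.0 to 43.8 FPKM on either side. Dlst held 53.0, 106 and 57.3 FPKM in MED13cTg, against 52.6 to 63.0 FPKM in WT.

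Most of the last enzymes were low in replicate 1 and high in replicate 2. The succinate dehydrogenase subunits held 86.1 and 262 FPKM (Sdha), 163 and 316 FPKM (Sdhb), 110 and 203 FPKM (Sdhc) and 98.98 and 196 FPKM (Sdhd) in MED13cTg replicates 1 and 2. Their WT ranges were 120 to 153, 160 to 235, 149 to 164 and 133 to 156 FPKM, so that Sdhb alone of the 4 was within its WT range in replicate 1. Fh1 held 43.8, 125 and 76.6 FPKM in MED13cTg, against 67.5 to 88.7 FPKM in WT. Mdh1 held 361, 403 and 435 FPKM in WT, against 71.4, 540 and 363 FPKM in MED13cTg, and Mdh2 held 315, 226 and 259 FPKM in WT, against 70.1, 358 and 239 FPKM in MED13cTg.

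Pcx and Got2 were both low in MED13cTg replicate 1 and went opposite ways in replicate 2. Pcx, which refills the cycle in adipocytes, held 50.4, 140 and 86.5 FPKM in WT, against 14.2, 387 and 96.2 FPKM in MED13cTg. Among the WT libraries its order was that of the summed adipocyte markers, which were 13326, 31808 and 21788 FPKM. Its lowest and highest values lay in the libraries with the lowest and highest sums. The WT order was not particular to Pcx, since 21 members had WT replicate 1 lowest and WT replicate 2 highest. For 16 members MED13cTg replicate 1 was lowest and replicate 2 highest of all EWAT libraries. Summed endothelium markers had these orders too, at 37.2, 90.1 and 60.0 FPKM in WT, against 8.51, 215 and 53.6 FPKM in MED13cTg. So did summed macrophage markers, at 79.1, 172 and 149 FPKM, against 53.3, 324 and 111 FPKM. Got2 held 362, 234 and 282 FPKM in WT, against 61.6, 27.1 and 299 FPKM in MED13cTg. It was lowest in the library with 225 FPKM of epididymis markers, next lowest in the library with 11324 FPKM of them, and at WT levels in replicate 3 with 74190 FPKM. Among the WT libraries, with 76530, 73157 and 94585 FPKM of these markers, Got2 did not follow their order. Its log2 fold change of -1.84 ± 0.87 (SE, adjusted p = 0.738 in limma) had the lowest unadjusted p of the list, 0.0819, and was 0.05 with replicates 1 and 2 left out. Got1 was low in EWAT, at 9.70, 9.38 and 10.9 FPKM in WT, against 9.65, 4.58 and 9.16 FPKM in MED13cTg, a log2 fold change of -0.38 ± 0.31 (SE, adjusted p = 0.738 in limma).

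**Figure D3:**
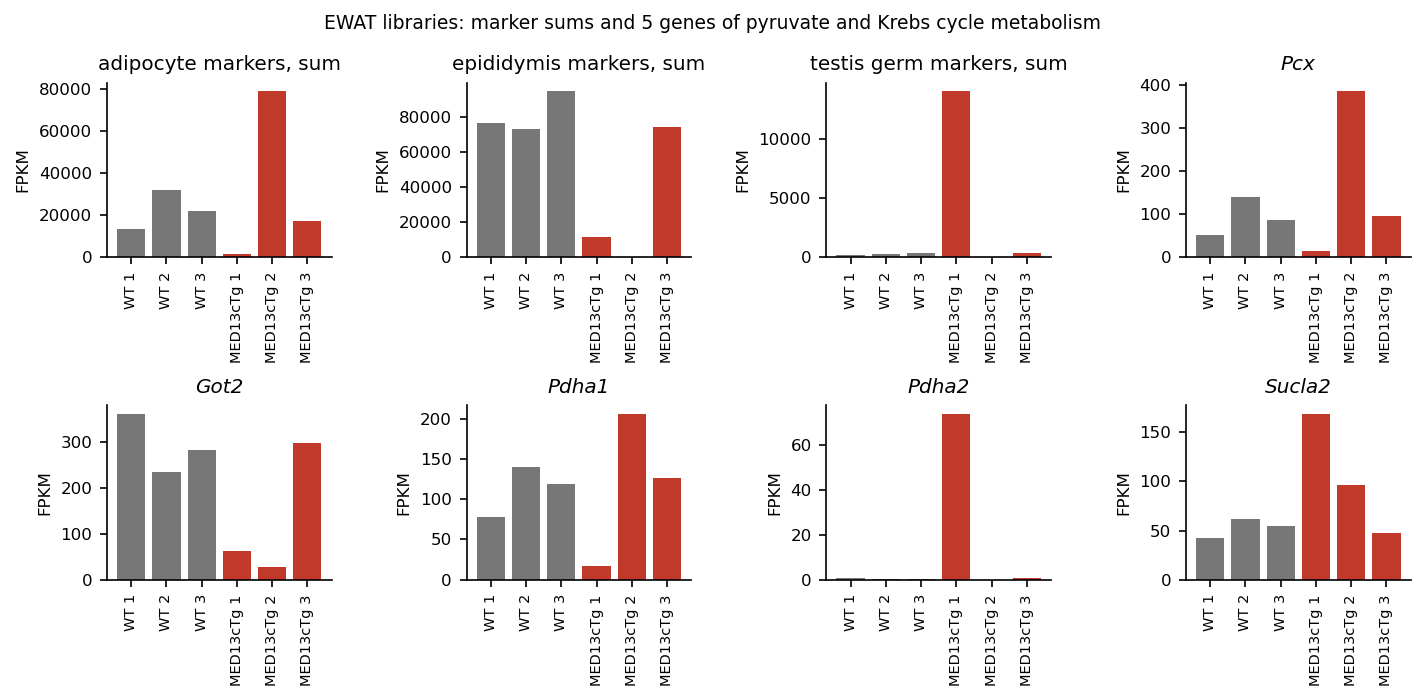
Bars give FPKM in each of the 6 EWAT libraries, WT in gray and MED13cTg in red, for the sums of 8 adipocyte, 10 epididymis and 8 testis germ cell markers and for Pcx, Got2, Pdha1, Pdha2 and Sucla2. MED13cTg replicate 1 has 14002 FPKM of germ cell markers with 73.7 FPKM of Pdha2, and replicate 2 has 79010 FPKM of adipocyte markers with 387 FPKM of Pcx and 27.1 FPKM of Got2.

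Of the related genes, 32 were tested in EWAT and 0 passed an adjusted p of 0.05, with 2 under 0.05 unadjusted (1.25% of all genes), Pdpr and Dhtkd1. The groups did not overlap for 2 genes above WT (4.88% of all genes) and for 3 below it (7.8%). Pdpr, a regulatory subunit of PDC phosphatase, held 1.49, 0.863 and 1.18 FPKM in WT, against 5.90, 5.25 and 2.05 FPKM in MED13cTg, without overlap. Its log2 fold change was 1.23 ± 0.41 (SE, adjusted p = 0.738 in limma), and replicate 3 was 0.50 above the WT mean on that scale. Dhtkd1, a paralog of Ogdh in lysine breakdown, held 0.973, 1.07 and 1.37 FPKM in WT, against 3.99, 3.53 and 1.73 FPKM in MED13cTg. Below every WT library were Slc25a11 (112 to 133 FPKM in WT, against 35.1, 58.4 and 107 FPKM in MED13cTg), the lipoyl transferase Lipt2 (10.3 to 12.7, against 7.64, 5.18 and 9.76 FPKM) and the succinate dehydrogenase assembly factor Sdhaf1 (35.4 to 41.1, against 25.7, 28.0 and 30.4 FPKM). These 5 genes had an adjusted p of 0.738 in limma. Ogdhl was high in replicate 1 and low in replicate 2, at 9.42 to 12.1 FPKM in WT, against 19.96, 1.68 and 10.5 FPKM in MED13cTg.

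The difference between the genotype differences of EWAT and ventricles was tested in a joint model of 11936 genes. None of the 33 members passed an adjusted p of 0.05, beside 0.0251% of all genes, and 2 were under 0.05 unadjusted, beside 3.67%. These 2 were Pdhx, with 0.92 ± 0.36, and Pdhb, with 0.83 ± 0.33 (log2, SE, EWAT minus ventricles, both with an adjusted p of 0.765 in limma). Leaving out MED13cTg EWAT replicate 3, which leaves the libraries rich in germ cell and in adipocyte transcripts, 4 members passed, in a fit that called 5.41% of all genes. They were Pdhx at 1.25 (adjusted p = 0.0133), Got2 at -2.51 (adjusted p = 0.0209), Sucla2 at 1.52 (adjusted p = 0.0440) and Pdhb at 1.07 (adjusted p = 0.0482), all in limma. These 4 were named after their values were seen.

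The tissues were normalized in separate tables, so levels are set side by side here without a test. In WT the members had a median of 544 FPKM in ventricles, where the median of all genes tested was 12.1 FPKM, and of 83.0 FPKM in EWAT, where it was 9.17 FPKM. The WT mean was higher in ventricles for 29 members, with a median ratio of ventricles to EWAT of 5.43. The ratio was highest for Got1, at 48.5, and Pdk4, at 35.6, followed by Idh3a at 13.5, Idh3b at 12.7 and Idh2 at 12.2. The 4 exceptions were Pcx, with a ratio of 0.0943, Pdk3, with 0.190, Aco1, with 0.201, and Idh1, with 0.999. The per-length order in ventricles was led by Mdh1, Sdhb, Mdh2, Idh2 and Idh3b, whose WT means were 2449, 2130, 1815, 1593 and 1203 FPKM. The standard deviations of these neighbors (448, 449, 277, 81.0 and 239 FPKM) covered the gaps from Mdh1 down to Idh2, while Idh3b was below Idh2 by more than either deviation. In EWAT the order was Mdh1, Got2, Mdh2 and Sdhb, with 399, 292, 266 and 203 FPKM. Their standard deviations were 37.4, 64.8, 45.0 and 38.4 FPKM, which covered the gap between Got2 and Mdh2, so the order of that pair is not resolved. The WT EWAT libraries held 73157 to 94585 FPKM of epididymis markers beside 13326 to 31808 FPKM of adipocyte markers. In MED13cTg EWAT replicate 2, with 225 FPKM of epididymis markers, Got2 held 27.1 FPKM. These EWAT levels, and the shares that follow, are of whole libraries and cannot be assigned to fat cells.

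**Figure D4:**
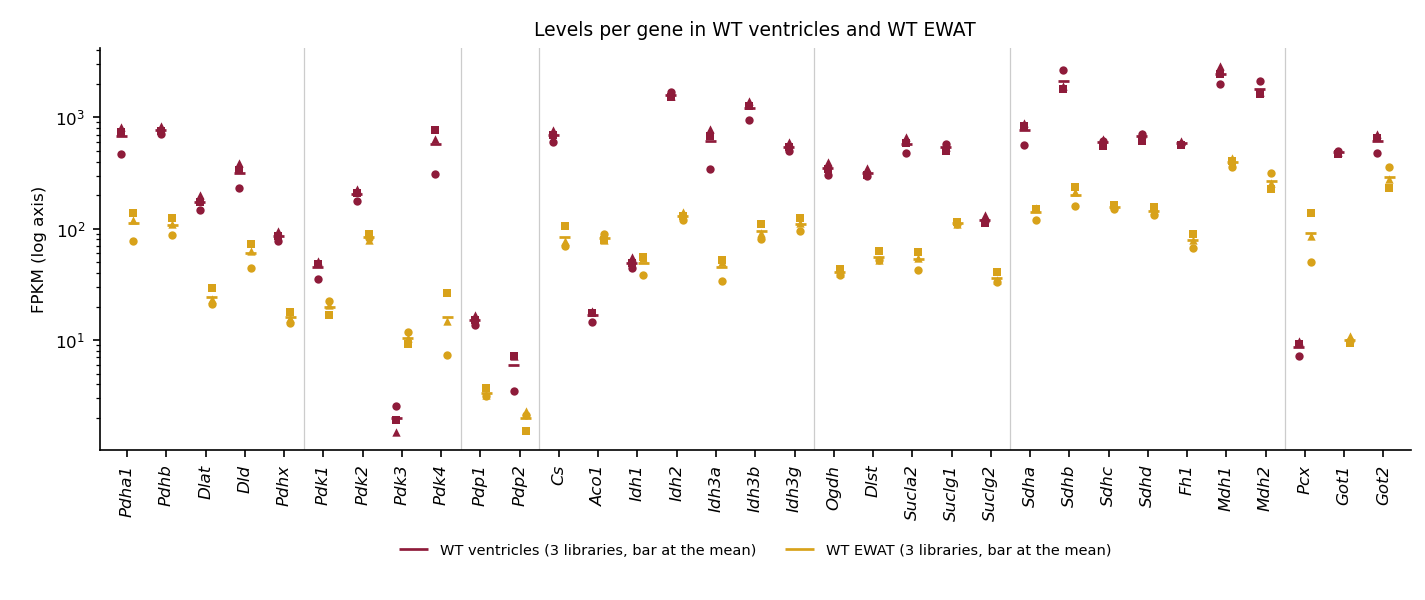
FPKM of each of the 33 genes, on a log axis, in the 3 WT ventricle libraries (dark red) and the 3 WT EWAT libraries (yellow), with a bar at each mean and circles, squares and triangles for replicates 1, 2 and 3. Of the 33 genes, 29 are higher in ventricles, while Pcx, Pdk3 and Aco1 are higher in EWAT and Idh1 is level.

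Shares of a gene in a set are ratios within a library and do not depend on its scaling. The sets were isoforms, except that Pcx was set against Pdha1 and Pdhx against Dlat, which are not isoforms of each other. Of 12 shares, 10 differed between the 6 EWAT and the 6 ventricle libraries at an adjusted p under 0.05. These were exact two-sided permutation tests over 924 arrangements. No shares of other genes were computed beside them, so the count is not a result particular to this pathway. The 4 kinase shares are parts of the same sum and not independent of each other. When libraries were paired by genotype and number 8 shares differed in an exact sign-flip test, and the Sucla2 and Pdha2 shares were lost. With 6 pairs a share can pass that test only if all its pairs go in 1 direction, so 1 pair is enough to lose it. The labels do not say whether libraries of equal number came from the same mouse. In 8 of the 10 there was no overlap between any libraries of the tissues, with an adjusted p of 0.00325 each in the exact permutation test, from the smallest p the 924 arrangements allow. Among WT libraries alone 10 shares did not overlap, where 3 against 3 libraries cannot give an exact p below 0.1.

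The kinase makeup differed most. Pdk4 gave 59.2, 74.9 and 69.6% of the summed kinase FPKM in WT ventricles and 5.82, 18.5 and 11.8% in WT EWAT. Pdk2 gave 33.7, 20.3 and 24.6% in WT ventricles and 66.6, 63.3 and 63.5% in WT EWAT. Over all 12 libraries the Pdk4 share was 57.8 points higher in ventricles and the Pdk2 share 38.4 points higher in EWAT. Pdk1 had shares of 5.64% ± 0.99 (SD, n = 3) in WT ventricles and 15.5% ± 3.3 in WT EWAT, and Pdk3 of 0.278% ± 0.18 and 8.08% ± 1.5. MED13cTg EWAT replicate 1 was apart, with 31.1% Pdk3 and 1.84% Pdk4, while replicate 2, the library richest in adipocyte transcripts, had 65.4% Pdk2 and 18.1% Pdk4, close to WT replicate 2.

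The cytosolic share of isocitrate dehydrogenase, Idh1 of Idh1 and Idh2, was 3.02% ± 0.43 (SD, n = 3) in WT ventricles and 27.4% ± 2.9 in WT EWAT, and reached 52.7 and 60.3% in MED13cTg EWAT replicates 1 and 2. The cytosolic share of aspartate transaminase, Got1 of Got1 and Got2, went the opposite way, from 44.6% ± 5.7 in WT ventricles to 3.40% ± 0.68 in WT EWAT. It was 13.5 and 14.4% in MED13cTg EWAT replicates 1 and 2, still below every ventricle library. Pcx, which carboxylates pyruvate, against Pdha1, which helps decarboxylate it, took 1.29% ± 0.17 of their sum in WT ventricles and 43.8% ± 5.6 in WT EWAT, and 65.2% in MED13cTg EWAT replicate 2. Pdhx of Dlat and Pdhx was 33.4% ± 1.1 in WT ventricles and 39.6% ± 1.4 in WT EWAT.

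The ATP-specific share of succinyl-CoA ligase, Sucla2 of Sucla2 and Suclg2, was 82.5% ± 1.9 (SD, n = 3) in WT ventricles and 59.4% ± 2.9 in WT EWAT, with an adjusted p of 0.0182 over all libraries in the exact permutation test. It was 0.075 in the exact sign-flip test with the libraries paired, and 0.0519 without WT EWAT replicate 1. MED13cTg EWAT replicate 1 overlapped the heart at 91.7%. The Pdha2 share had the same adjusted p of 0.0182, exact permutation test, on values near 0 outside that library, 0.075 in the paired test and 0.468 to 0.510 with any single ventricle library left out. That rise comes from unequal groups, since the 81.0% of MED13cTg EWAT replicate 1 weighs more in the smaller group. It does not depend on which ventricle library is left out. The malate dehydrogenase share did not separate the tissues. Mdh1 gave 57.2% ± 7.9 of the pair in WT ventricles and 60.1% ± 5.8 in WT EWAT, with an adjusted p of 0.613 in the exact permutation test. The Pdp1 share of the phosphatases was 72.3% ± 6.3 and 62.8% ± 6.8, with an adjusted p of 0.146 in the exact permutation test. That p was 0.0156 without MED13cTg EWAT replicate 1, whose Pdp1 share was 92.9%.

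**Figure D5:**
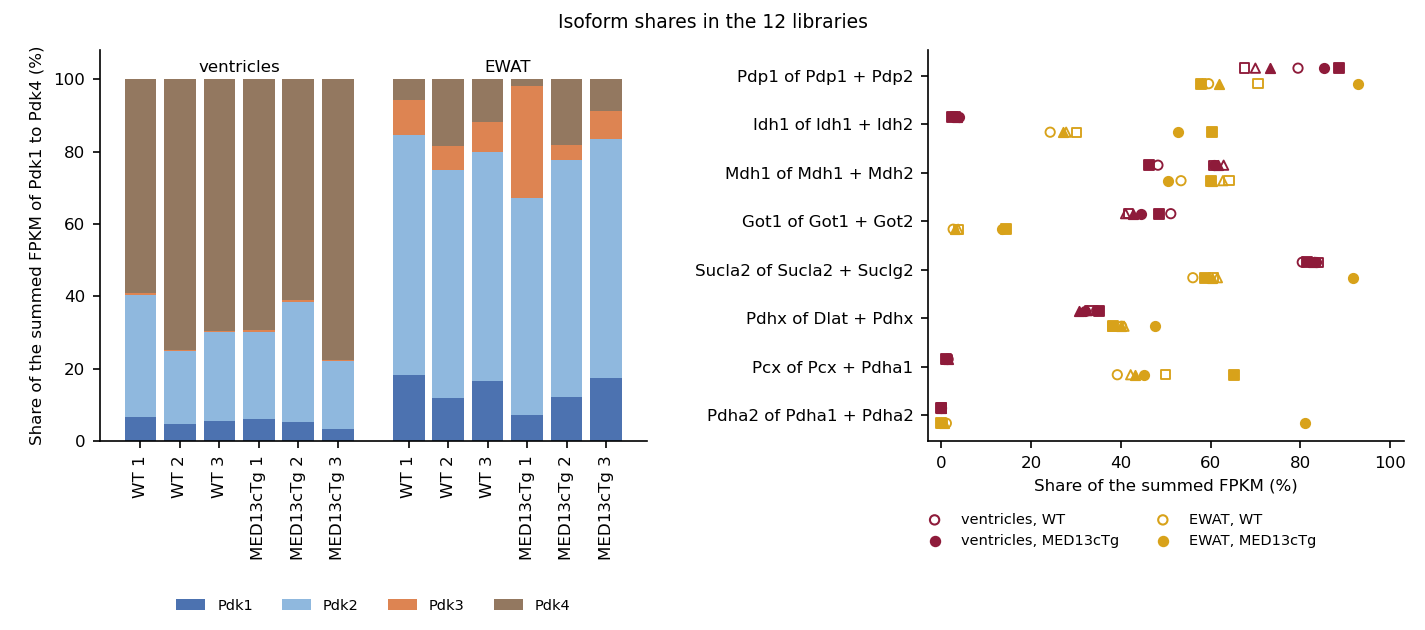
Left, stacked bars of the share of Pdk1, Pdk2, Pdk3 and Pdk4 in their summed FPKM for each library, with Pdk4 between 59.2 and 77.6% in ventricles and between 1.84 and 18.5% in EWAT. Right, 8 further shares by library, ventricles in dark red and EWAT in yellow, WT open and MED13cTg filled, circles, squares and triangles for replicates 1, 2 and 3. The tissues are apart for the Idh1, Got1, Pdhx and Pcx shares.

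Between genotypes no share was without overlap in either tissue, over 24 comparisons, and the smallest exact permutation p was 0.2, where 0.1 is the smallest possible. In ventricles the Pdp1 share was 67.6 to 79.5% in WT and 73.3 to 88.6% in MED13cTg, and the Pdk4 share 59.2 to 74.9% and 61.0 to 77.6%. In EWAT the Idh1 share was 24.2 to 30.1% in WT, and 52.7, 60.3 and 27.0% in MED13cTg, so that replicate 3 again stayed with WT.

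Estrogen-related receptors drive many genes of oxidative metabolism, and their element was searched in the promoters as letters, TNAAGGTCA on both strands with any base at N. RefSeq promoters (GRCm38.p6, 300 bases) were held for 30 of the 33 members, all but Pdp1, Idh3a and Sdhc. The element was present in 1 of these 30, Sdhd, and in 1.43% of the 27025 genes with a promoter.

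For 7 members the file gives the same locus as for another gene, so that their levels are less certain. Dlat and Sdhd share chr9:50404444-50467885 (mm9), and the other members concerned are Pdha1, Cs, Idh3b, Sucla2 and Pcx.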

How the data were processed

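RNA was isolated with Trizol and libraries were made with the TruSeq kit from 1 µg of total RNA per the labels. The authors aligned reads with TopHat to mm9 and deposited FPKM values from Cufflinks, 1 table per tissue with 1 column per library; columns of their genotype means and fold changes hold their own comparisons and were not used, nor was 1 unnamed column. Versions are not given in the sources used here. Absolute depth is unknown from FPKM; relative depth was read from values under 0.15 FPKM.

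Groups came from the labels. Nothing says more of the replicates than 3 mice per group. The limma p-values set a difference against the variation between these libraries, moderated over all genes. In EWAT that variation includes the unequal levels of adipocyte, epididymis and germ cell transcripts. Members, gene lists and tests were chosen with earlier results of these data known. Values were compared as log2(FPKM + 1), a scale that understates changes of low genes, for genes averaging 1 FPKM or more over a tissue, with limma 3.58.1 in R 4.3.3 (eBayes with trend, Benjamini-Hochberg over all genes, threshold 0.05), each tissue alone and both together for the difference of differences. Isoform shares, and the shares of Pcx with Pdha1 and of Pdhx with Dlat, were compared with exact two-sided permutation tests, adjusted over 12 shares (Python 3.11.15). All 33 members were named. Fold changes were given for members without overlap and for the 3 with the lowest unadjusted p in each direction; of the related genes, those without overlap were named (at most 6 per tissue, by p), with Pdha2 and Ogdhl; 1 gene of that list is counted but not reported here. The labels do not say whether replicate numbers pair libraries, and the main fits were unpaired. Same-numbered deviations correlated at 0.346, 0.303 and 0.144 in EWAT, where WT replicate 3 correlated at 0.168 with MED13cTg replicate 2. In ventricles the same-numbered values were 0.0851, -0.192 and 0.139. The limma and permutation code was tested on simulated data. Alternatives were other pseudocounts, filters, scalings, weights, blocks and leaving out libraries.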

Additional observations from a re-analysis of the deposited data

Results flagged for a closer look

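For Pdhb and Pdhx, all 3 MED13cTg libraries were below the WT mean in ventricles and all 3 above it in EWAT. The log2 fold change in EWAT minus that in ventricles was 0.83 for Pdhb and 0.92 for Pdhx, and neither passed the test of that difference over all genes (adjusted p = 0.765 for both in limma). The margin of MED13cTg EWAT replicate 3 over the WT mean was 0.12 for Pdhb and 0.0044 for Pdhx on the log2 scale.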

How the results depend on the processing

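No member passed an adjusted p of 0.05 in either tissue under any alternative run. In ventricles the members without overlap above WT numbered 1 with a minimum of 5 FPKM, which Pdk3 did not reach, beside 218 of 9283 genes. Those below WT numbered 5 after median-of-ratios scaling (584 of 12589 genes) and 2 after quantile normalization (547 of 12589 genes). In EWAT 1 member was above WT without overlap after median-of-ratios scaling, beside 1036 of 14967 genes. After quantile normalization 1 was above and 1 below, beside 756 and 688 of 14967 genes. With array weights 10 members had a lower mean, beside 6900 of 14967 genes. Leaving out 1 library moved the EWAT count of lower members from 6 to 26, where 7227 of 13661 and 7844 of 14968 genes were lower. The members' median moved from -0.33 to 0.35. Leaving out 1 library also moved the count of members with a lower difference in EWAT than in ventricles from 3 to 18. Their median moved from -0.10 to 0.58 and the calls from 0 to 4. The Got2 fold change became 0.054 without MED13cTg EWAT replicates 1 and 2, an alternative added after the data were seen, in which the lone MED13cTg library is assumed to vary like WT. With 1 library left out, Ogdhl in EWAT ran from -1.07 to 0.41 and the Mdh1 share difference from -0.294 to 3.39 points. The causes were not tested beyond the libraries left out. With the replicate number as a block, 0 members were called in ventricles, in EWAT and for their difference. The labels do not say whether equal numbers pair libraries, within a tissue or across tissues. A block over both tissues left 8 of 12 shares called, the Sucla2 and Pdha2 shares having an adjusted p of 0.075 in the exact sign-flip test. Absolute depth is unknown, and 3 mice per group limit the precision.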
